A study of Homo sapiens with 6 samples.

Results

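The SLC25 carrier family was taken as every gene of the deposited count table whose symbol is SLC25A followed by a number, leaving out SLC25A20, which gave 42 of the 20503 genes in the table. RNA of 2 human breast cancer cell cultures was compared, with 3 poly(A)-selected libraries each. One was T47D, a breast cancer line that the labels call ER-positive. The other was T47D-TR, a subline derived from T47D that the labels call tamoxifen-resistant, and its medium held 4-hydroxytamoxifen at 1 µM, a form of the drug that binds the receptor directly. Both were kept in DMEM with 10% fetal bovine serum and antibiotics. T47D had no drug in its described medium, so subline and drug exposure cannot be told apart. The labels do not state whether libraries of one kind were grown as separate cultures, nor whether the subline was derived more than once. The p-values therefore cover only the spread among these 6 libraries, and this may be technical.

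SLC25 proteins are the largest family of transporters of the inner mitochondrial membrane. Most exchange a solute of the matrix for one of the cytosol: ADP for ATP, citrate for malate, aspartate for glutamate, or a cofactor for its precursor; the phosphate carrier brings in phosphate together with a proton. They are encoded in the nucleus, made in the cytosol and brought into the inner membrane by the TOM and TIM22 import machinery, and a few members sit in peroxisomes or the outer membrane instead. The family connects cytosolic and mitochondrial metabolism, and many substrates are served by a pair of related carriers that differ between tissues.

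Libraries held 17199315 to 19867230 counts. Over all tested genes, log2 levels correlated within a group at r = 0.990 to 0.994, with T47D-TR library 3 lowest against both of its partners. Levels below are CPM, that is counts divided by library size after TMM, an edgeR factor that aligns the libraries, and a count of 3 corresponded to 0.153 to 0.178 CPM. A member was called higher or lower in T47D-TR at a Benjamini-Hochberg adjusted p under 0.05 in edgeR's quasi-likelihood test over the 15961 genes that passed the filter on low counts, and log2 changes carry the standard error (SE) between libraries. The luminal keratins KRT8 and KRT18 stood at 1338 and 683 CPM in T47D and at 1580 and 928 CPM in T47D-TR. ESR1, which encodes the estrogen receptor that the ER label refers to, had 0 to 4 counts in any library. Of markers of other cell types, summed CPM of the 7 fibroblast genes was 36.4 to 39.8 (T47D) and 20.4 to 26.9 (T47D-TR), of the 4 basal genes 30.97 to 33.8 and 257 to 304, of the 3 immune genes measured 21.9 to 25.6 and 56.4 to 74.8, and of the 2 endothelial genes measured 0.665 to 0.804 and 23.5 to 31.1. Single genes carried most of each difference: LUM for fibroblasts (mean 13.9 and 0.253 CPM), ITGB4 for basal cells (31.2 and 273 CPM), CD68 for immune cells (23.7 and 64.6 CPM) and PECAM1 for endothelium (0.669 and 27.3 CPM). The basal gene TP63 (0.0537 and 0.999 CPM) was also called higher, and the fibroblast gene PDGFRB (5.72 and 3.58 CPM) was also called lower. COL1A1 (18.2 and 17.5 CPM) and KRT5 (1.201 and 1.68 CPM) were not called, and PTPRC, VWF and PDGFRA had at most 4 counts in any library. T47D-TR library 3, the one with the lowest correlations, had 22 counts of COL1A2, 37 of COL3A1, 19 of DCN and 15 of KRT14, against 0 to 4 of each in the other libraries. Their part in the results on the carriers was not tested.

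More carrier genes were lower than higher in the resistant subline. All 42 members had at least 1 count in every library, and 41 passed the filter. Of these, 18 were called lower, 10 higher and 13 neither way. The share called either way was 68.3%, beside a background of 63.0% of all tested genes; 43.9% of the members were lower against 30.5% of all genes, and 24.4% were higher against 32.5%. The median log2 change was -0.15 over the members and 0.00 over all tested genes. With voom and quantile normalization the split was 21 lower and 7 higher, beside 36.3% lower and 27.4% higher of all genes, and that scaling moved the median of all genes by -0.11. Groups did not overlap in 28 of the 41 members, 68.3%, against 68.3% of all tested genes. Changes were mostly moderate: the median size was 0.30 on the log2 scale against 0.36 over all genes, and 4 members were called with at least a 2-fold change, SLC25A4 and SLC25A22 lower and SLC25A45 and SLC25A53 higher, beside backgrounds of 3.87% lower and 10.1% higher. In RNA of whole cultures, a lower level in every cell and a smaller share of cells with the transcript cannot be told apart.

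The summed counts of the family made up a smaller share of all counts in each T47D-TR library. Members summed to 0.236%, 0.239% and 0.236% of all counts in the T47D libraries and to 0.208%, 0.203% and 0.199% in the T47D-TR libraries. Every T47D-TR library lay below every T47D library. The means differed by -0.0335 percentage points with an exact permutation p of 0.1, 2-sided, which is the smallest that 3 libraries against 3 can give. Without any single library the difference stayed between -0.0358 and -0.0312 points. Such a sum weighs the most counted members most, among them SLC25A3 and SLC25A5, both called lower, while 10 members were called higher.

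Levels differed widely among members. Per kilobase of annotated exon (the union over all transcripts in GENCODE v29), SLC25A5, an ADP/ATP carrier, stood highest, at 177 CPM per kb in T47D and 133 in T47D-TR. It was followed in T47D by SLC25A39, which imports glutathione, at 52.1, the phosphate carrier SLC25A3 at 44.3, the folate and FAD carrier SLC25A32 at 33.6 and the ornithine carrier SLC25A15 at 30.8 CPM per kb. In T47D-TR SLC25A39 stood at 46.8, SLC25A3 at 38.3, the ATP-Mg/phosphate carrier SLC25A23 at 27.8, SLC25A32 at 24.2, SLC25A1 at 22.2, SLC25A10 at 19.8 and SLC25A15 at 16.4 CPM per kb. At the low end were SLC25A53 at 0.0563, SLC25A34 at 0.0925, SLC25A18 at 0.193 and SLC25A45 at 0.239 CPM per kb in T47D. Long, rarely used exons lower these figures for some genes, and the order was not tested.

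**Figure D1:**
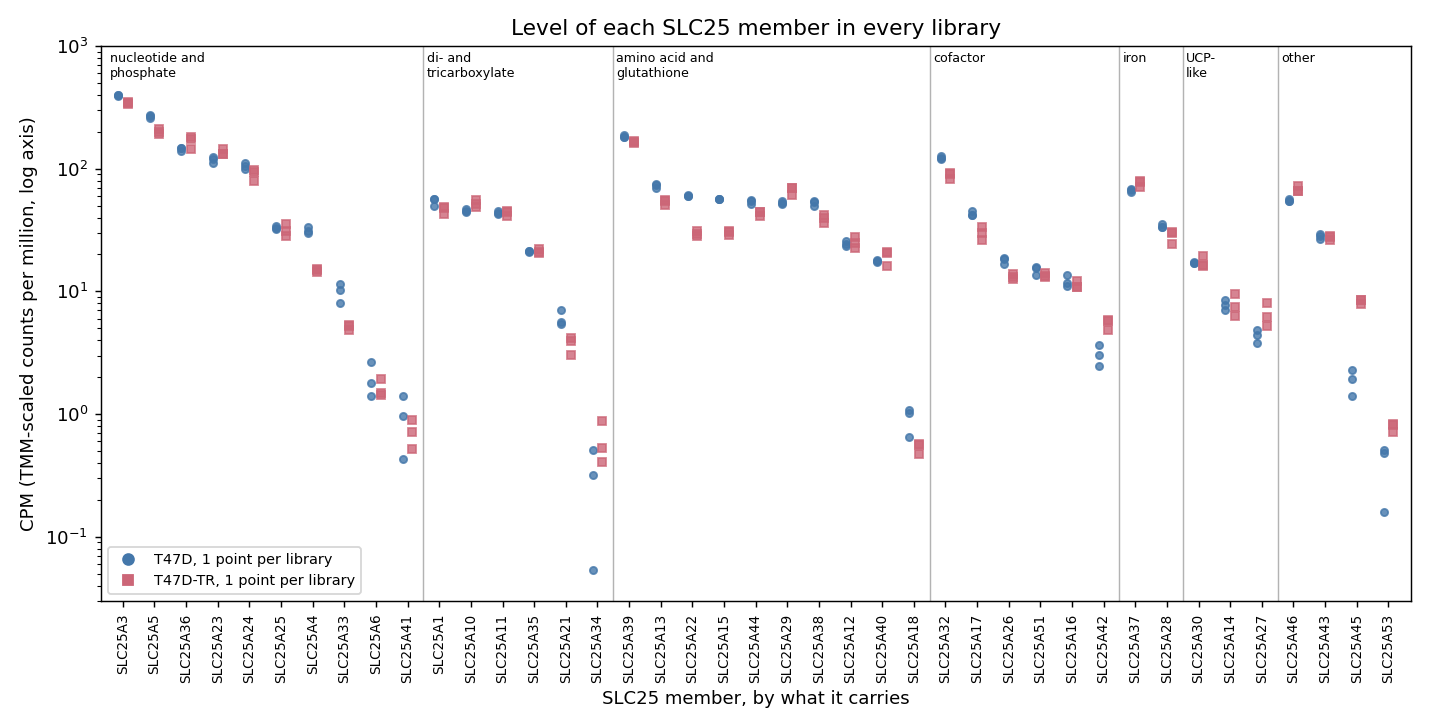
Level of the SLC25 members described in the text in every library, as CPM on a log axis, with 1 point per library, 3 of T47D and 3 of T47D-TR. Members span from under 1 CPM in every library (SLC25A34 and SLC25A53) to 387 CPM and above for SLC25A3 in T47D, and SLC25A45 shows the widest gap between the groups.

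Carriers of adenine nucleotides and phosphate link the ATP made in the matrix to its use in the cytosol. Of the 10 tested carriers of nucleotides and phosphate, 5 were called lower, 2 higher and 3 neither way, beside 30.5% lower and 32.5% higher of all tested genes, and the median log2 change was -0.24. SLC25A4 (chromosome 4, 185143241 to 185150382, GRCh38), the ADP/ATP carrier typical of heart and skeletal muscle, had 29.8, 31.2 and 33.5 CPM in T47D and 15.2, 15.04 and 14.3 CPM in T47D-TR. The subline was at about the same low level in all its libraries, well below the parent. The means were 31.5 ± 1.90 and 14.8 ± 0.493 CPM (SD, n = 3), a log2 change of -1.09 ± 0.06 (SE; edgeR adjusted p = 9.87e-08). SLC25A5 (chromosome X, 119468400 to 119471319), the ADP/ATP carrier of dividing cells, had 257, 272 and 267 CPM in T47D and 198, 192 and 209 CPM in T47D-TR. It too was lower without overlap, but by less, -0.41 ± 0.04 (edgeR adjusted p = 6.59e-06). SLC25A6, the remaining ADP/ATP carrier measured, had 2.64, 1.79 and 1.39 CPM in T47D and 1.92, 1.48 and 1.42 CPM in T47D-TR, and the groups overlapped (-0.27 ± 0.28, edgeR adjusted p = 0.402).

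Within the ADP/ATP carriers the balance between SLC25A4 and SLC25A5 differed between the cultures. SLC25A4 made up 10.3%, 10.2% and 11.1% of their summed counts in T47D and 7.06%, 7.22% and 6.35% in T47D-TR. SLC25A5 supplied 88.8% ± 0.376 (SD, n = 3) in T47D and 92.4% ± 0.550 in T47D-TR, so the share of SLC25A4 was lower and that of SLC25A5 higher in every T47D-TR library. The SLC25A4 share differed by -3.66 percentage points and the SLC25A5 share by 3.57 points, each with an exact permutation p of 0.1, the smallest possible. SLC25A6 supplied 0.653% and 0.744% (exact permutation p = 0.6). GENCODE lists 9 pseudogenes of SLC25A5 and 6 of SLC25A6, and SLC25A6 itself is annotated on both sex chromosomes. The sources used here do not state how reads matching several copies were counted, so the levels of SLC25A5 and SLC25A6 are uncertain; the 12 genes of the table annotated on both sex chromosomes had median levels of 1.09 CPM in T47D and 0.433 CPM in T47D-TR. SLC25A5 also overlaps the antisense gene SLC25A5-AS1 (62.0 CPM in T47D, 49.3 in T47D-TR, log2 change -0.33). The libraries keep strand, but whether reads were counted by strand is not stated, and without it the reads of overlapping genes cannot be told apart.

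The promoters of these carriers are shown because both genes were lower in the same libraries by different amounts. Each line is the 250 bases before the RefSeq start, 5′ to 3′ on the plus strand of GRCh38.p14, SLC25A4 at chr4:185143016-185143265 and SLC25A5 at chrX:119468194-119468443. Capitals mark matches, on either strand, to CCAAT (the CCAAT box) or GGGCGG (the GC box, read CCGCCC on the other strand); no marked matches overlap.
SLC25A4: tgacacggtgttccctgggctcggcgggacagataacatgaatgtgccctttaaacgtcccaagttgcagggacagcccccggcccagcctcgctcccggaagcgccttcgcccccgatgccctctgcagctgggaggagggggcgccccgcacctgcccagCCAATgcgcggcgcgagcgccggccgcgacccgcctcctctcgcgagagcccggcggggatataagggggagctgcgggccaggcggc
SLC25A5: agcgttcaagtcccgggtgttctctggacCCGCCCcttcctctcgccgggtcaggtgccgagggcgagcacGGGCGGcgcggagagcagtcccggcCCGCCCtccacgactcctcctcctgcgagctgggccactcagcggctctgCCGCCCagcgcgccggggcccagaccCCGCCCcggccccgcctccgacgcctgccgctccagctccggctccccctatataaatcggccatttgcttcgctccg
The SLC25A4 window held 1 CCAAT box and no GC box, and the SLC25A5 window held 5 GC boxes and no CCAAT box. Windows were on file for 35 members, 45 windows in all. CCAAT stood in 22 of these (48.9%) against 32.01% of all 35116 RefSeq windows of this length, and GGGCGG in 30 (66.7%) against 42.6%. A match describes the letters only.

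SLC25A3, the phosphate carrier that supplies ATP synthase, was the most counted member. It had 387, 399 and 397 CPM in T47D and 342, 334 and 347 CPM in T47D-TR. The groups did not overlap, but the change was small, -0.21 ± 0.02 (edgeR adjusted p = 0.000383). The ATP-Mg/phosphate carriers, calcium-regulated proteins that set the adenine nucleotide pool of the matrix, split. SLC25A23 had 125, 119.9 and 111 CPM in T47D and 132, 131 and 143 CPM in T47D-TR and was called higher, by 0.19 ± 0.07 (edgeR adjusted p = 0.0117). SLC25A24 had 98.5, 104 and 112 CPM in T47D and 97.4, 93.8 and 79.2 CPM in T47D-TR and was called lower, by -0.22 ± 0.11 (edgeR adjusted p = 0.0216), with T47D-TR library 3 lowest. Both sets of values were close at their nearest libraries. The SLC25A23 call was lost without T47D library 3 (edgeR adjusted p = 0.0729) and the SLC25A24 call without T47D library 2 (0.0541) or 3 (0.107). SLC25A25 at 33.04 and 31.7 CPM and SLC25A41 at 0.933 and 0.707 CPM were not called.

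The pyrimidine nucleotide carriers SLC25A33 and SLC25A36, close relatives that supply the matrix for mitochondrial DNA and RNA synthesis, moved in opposite directions. SLC25A33 (chromosome 1, 9539482 to 9585179) had 11.4, 10.3 and 8.04 CPM in T47D and 4.87, 5.35 and 5.21 CPM in T47D-TR. All T47D-TR libraries were below all T47D libraries, with a log2 change of -0.95 ± 0.15 (edgeR adjusted p = 8.33e-05). SLC25A36 (chromosome 3, 140941830 to 140980961) had 146, 140.1 and 148 CPM in T47D and 174, 181 and 145 CPM in T47D-TR. T47D-TR libraries 1 and 2 were above all of T47D and library 3 was not, so that the groups overlapped, and the call higher (0.21 ± 0.10, edgeR adjusted p = 0.0208) was lost with library size alone as the scaling (0.0524) and without any 1 of T47D libraries 1, 2 or 3 or T47D-TR libraries 1 or 2 (0.0504 to 0.0971). The authors' deposited table gave SLC25A36 a false discovery rate of 0.0703. The log2 ratio of SLC25A33 to SLC25A36 within each library differed by -1.13 ± 0.19 (SE) between the groups, without overlap (exact permutation p = 0.1, 0.2 adjusted over 12 pairs).

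Both promoters are shown because their transcripts were called in opposite directions. Each line is again the 250 bases before the RefSeq start, 5′ to 3′ on the plus strand of GRCh38.p14, SLC25A33 at chr1:9539215-9539464 and SLC25A36 at chr3:140941586-140941835. Capitals mark CACGTG (the E-box read by MYC and its relatives), TGACGTCA (the cAMP response element) and CCAAT, on either strand, with no overlap among them.
SLC25A33: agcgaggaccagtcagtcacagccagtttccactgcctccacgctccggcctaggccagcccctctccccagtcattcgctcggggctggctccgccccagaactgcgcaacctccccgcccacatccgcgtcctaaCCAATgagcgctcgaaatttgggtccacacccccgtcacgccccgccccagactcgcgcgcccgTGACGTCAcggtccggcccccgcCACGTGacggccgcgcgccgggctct
SLC25A36: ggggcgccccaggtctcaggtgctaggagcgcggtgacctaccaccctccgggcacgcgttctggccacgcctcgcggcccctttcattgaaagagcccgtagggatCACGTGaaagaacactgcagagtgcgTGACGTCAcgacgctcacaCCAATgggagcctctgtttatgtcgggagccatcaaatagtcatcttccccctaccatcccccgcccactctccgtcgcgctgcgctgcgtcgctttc
Each window held 1 match of each of these kinds. GC boxes, not in capitals here, numbered 3 in the SLC25A33 window and 1 in the SLC25A36 window. CACGTG stood in 7 of the 45 member windows (15.6%) against 6.34% of all windows. Of the 7 members that had it, 4 were called lower and 2 higher. Among all tested members 43.9% were lower and 24.4% higher, and among all tested genes 30.5% and 32.5%. A link between this motif and the direction of change was not tested. TGACGTCA stood in 3 member windows (6.67%), those of SLC25A25, SLC25A33 and SLC25A36, against 1.65% of all windows.

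Carriers of di- and tricarboxylates showed no common direction. Of 5 tested, 2 were lower, 1 was higher and 2 passed neither way, beside 30.5% lower and 32.5% higher of all tested genes. The median log2 change was -0.00. SLC25A21, the carrier of oxoadipate and oxoglutarate, had 5.65, 5.42 and 7.07 CPM in T47D and 3.06, 3.98 and 4.15 CPM in T47D-TR. It was lower without overlap, by -0.70 ± 0.18 (edgeR adjusted p = 0.00254). SLC25A1, which exports citrate for fatty acid synthesis, had 56.3, 56.6 and 49.5 CPM in T47D and 48.01, 48.6 and 42.7 CPM in T47D-TR. Its change of -0.22 ± 0.09 (edgeR adjusted p = 0.0166) lost its call without T47D library 1 (0.0723) or 2 (0.0754). The dicarboxylate carrier SLC25A10 had 45.01, 46.5 and 44.6 CPM in T47D and 51.3, 48.6 and 56.0 CPM in T47D-TR. It was called higher by 0.19 ± 0.06 (edgeR adjusted p = 0.0162), a call lost without T47D library 1 (0.0579) or 3 (0.0632) and with voom (0.0553). The oxoglutarate/malate carrier SLC25A11 stood at 43.5 ± 1.31 and 43.7 ± 2.48 CPM (log2 change 0.01 ± 0.05), and SLC25A35 at 21.1 ± 0.283 and 21.1 ± 0.833 CPM. SLC25A11 overlaps the antisense gene RNF167 (106 and 113 CPM), SLC25A35 RANGRF (20.6 and 18.4 CPM) and SLC25A21 PAX9 (8.19 and 7.95 CPM), none of them called. The limit on strand counting holds for these carriers and for their ratios. SLC25A34, the member below the filter, had 1, 10 and 6 counts in T47D and 17, 8 and 9 in T47D-TR.

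Carriers of amino acids and glutathione were lower in 6 of 10 cases and higher in 1, with 3 not called, beside 30.5% lower and 32.5% higher of all tested genes, and the median log2 change was -0.38. SLC25A22 (chromosome 11, 790475 to 798333), a glutamate carrier, had 59.6, 60.1 and 60.7 CPM in T47D and 31.2, 28.1 and 29.4 CPM in T47D-TR. The libraries of each group were nearly level and the groups far apart, with a log2 change of -1.02 ± 0.04 (edgeR adjusted p = 1.93e-08). SLC25A22 overlaps the antisense gene PANO1, which had 0.821 CPM in T47D and 0.609 CPM in T47D-TR. SLC25A18, the other glutamate carrier, was near the detection limit at 0.646, 1.02 and 1.07 CPM in T47D and 0.570, 0.561 and 0.474 CPM in T47D-TR (-0.76 ± 0.22, edgeR adjusted p = 0.0606).

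SLC25A15 (chromosome 13, 40789412 to 40810111), the ornithine carrier of the urea cycle and polyamine metabolism, had 56.2, 56.8 and 56.9 CPM in T47D and 30.6, 31.1 and 28.96 CPM in T47D-TR. It was lower in every library, by -0.90 ± 0.03 (edgeR adjusted p = 4.33e-08); GENCODE lists 5 pseudogenes of it. SLC25A13 (citrin) and SLC25A12 (aralar) exchange aspartate for glutamate in the malate-aspartate shuttle. SLC25A13 had 74.6, 74.3 and 69.4 CPM in T47D and 54.7, 50.9 and 55.2 CPM in T47D-TR, lower by -0.44 ± 0.05 (edgeR adjusted p = 1.89e-05). SLC25A12 had 23.6, 24.2 and 25.7 CPM in T47D and 24.7, 22.7 and 27.6 CPM in T47D-TR, with overlapping groups (0.03 ± 0.09, edgeR adjusted p = 0.781). It overlaps 2 antisense genes of the table, HAT1 (97.7 and 108 CPM, called higher) and METAP1D (10.2 and 7.84 CPM, called lower), and the limit on strand counting holds for it and for its ratio. Their log2 ratio, SLC25A12 over SLC25A13, differed by 0.47 ± 0.09 without overlap (exact permutation p = 0.1, adjusted 0.2).

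SLC25A38, the glycine carrier that feeds haem synthesis, stood at 52.7 ± 2.69 CPM in T47D and 39.1 ± 2.94 CPM in T47D-TR (-0.43 ± 0.08, edgeR adjusted p = 0.00013). SLC25A44, which imports branched-chain amino acids, stood at 53.9 ± 2.31 and 43.1 ± 1.77 CPM (-0.32 ± 0.05, edgeR adjusted p = 0.000402). Of the glutathione carriers, SLC25A39 had 180.4, 188 and 182 CPM in T47D and 169, 160.5 and 166 CPM in T47D-TR and was lower by -0.15 ± 0.03 (edgeR adjusted p = 0.0075). SLC25A40 had 17.98, 17.2 and 17.6 CPM in T47D and 20.5, 20.96 and 16.2 CPM in T47D-TR. T47D-TR library 3 lay below T47D here and the other two above, and without it SLC25A40 was called higher (0.24, edgeR adjusted p = 0.0116) in place of not called (0.13 ± 0.12, 0.271). It overlaps the antisense gene DBF4, which was more abundant and called lower (76.8 and 49.7 CPM, -0.63), and strand counting is not stated. The basic amino acid carrier SLC25A29 was the member of this group that was higher, with 54.1, 52.9 and 51.98 CPM in T47D and 69.4, 69.0 and 61.1 CPM in T47D-TR (0.33 ± 0.06, edgeR adjusted p = 0.000387).

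Cofactor carriers were lower in 4 of 7 cases, higher in 1 and not called in 2, beside 30.5% lower and 32.5% higher of all tested genes, and the median log2 change was -0.44. SLC25A17, a peroxisomal carrier of CoA, FAD and related cofactors, had 41.7, 41.99 and 44.8 CPM in T47D and 33.3, 29.7 and 26.1 CPM in T47D-TR (-0.53 ± 0.11, edgeR adjusted p = 0.000115). The groups did not overlap, and T47D-TR library 3 was lowest.

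SLC25A32, which carries folate and FAD, had 120.1, 122 and 126 CPM in T47D and 92.0, 90.3 and 82.7 CPM in T47D-TR, lower by -0.48 ± 0.05 (edgeR adjusted p = 5.78e-06). It overlaps DCAF13 on the other strand, which was also lower (152 and 118 CPM, -0.37), so the same limit of unknown strand counting holds. SLC25A26, the S-adenosylmethionine carrier, had 18.4, 16.8 and 18.6 CPM in T47D and 13.1, 12.5 and 13.98 CPM in T47D-TR (-0.44 ± 0.06, edgeR adjusted p = 0.000617). SLC25A42, the mitochondrial CoA carrier (chromosome 19, 19063999 to 19112888), went the other way, with 2.48, 3.02 and 3.64 CPM in T47D and 4.87, 5.76 and 5.80 CPM in T47D-TR. All T47D-TR libraries were above all of T47D (0.84 ± 0.17, edgeR adjusted p = 0.000798). SLC25A16 (12.1 and 11.3 CPM) and the NAD carrier SLC25A51 (14.95 and 13.5 CPM) were not called.

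**Figure D2:**
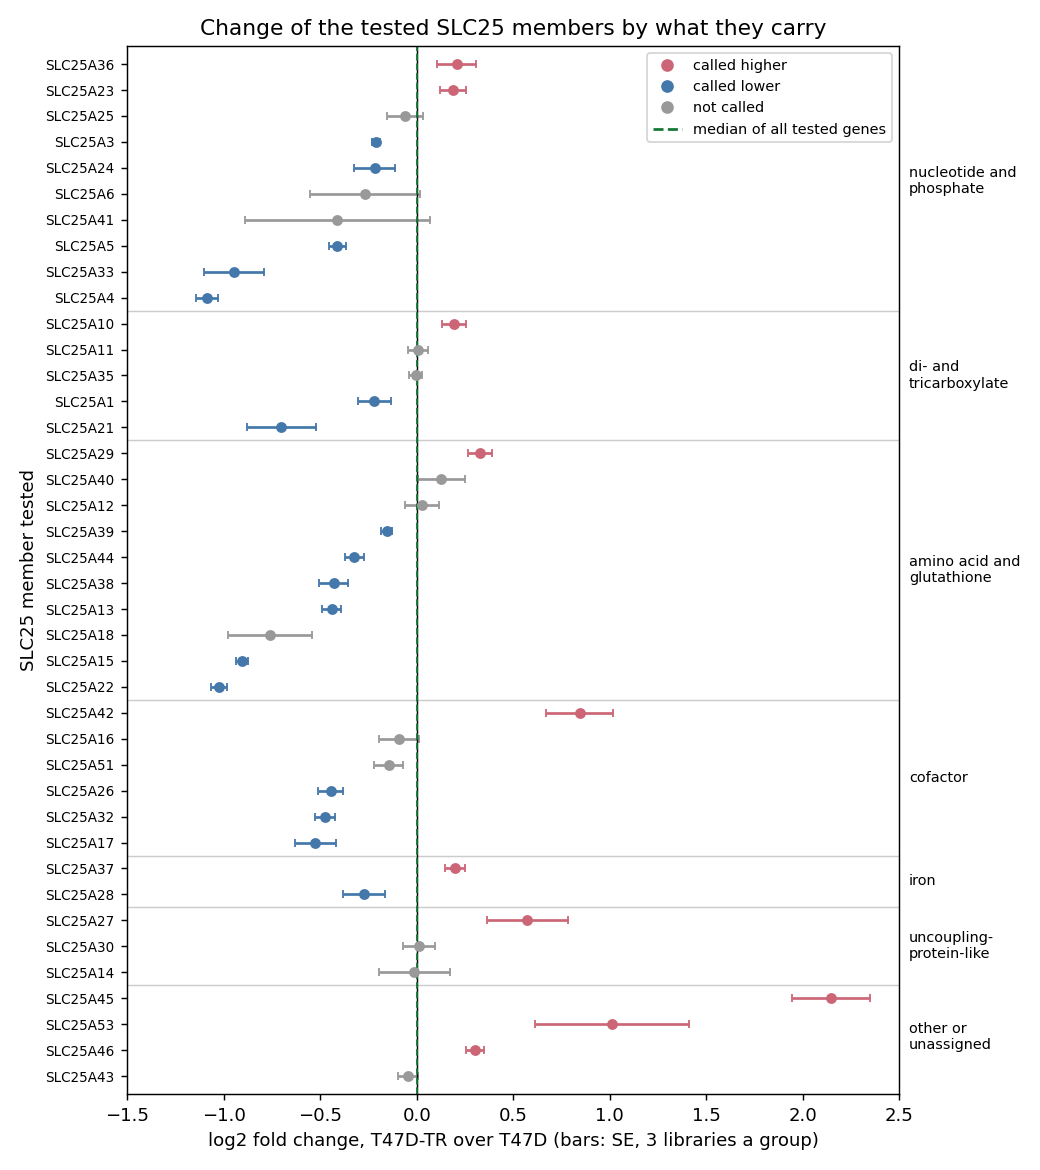
Log2 change of T47D-TR over T47D for the tested members described in the text, ordered within groups by what they carry, with bars of 1 SE over 3 libraries a group and the median of all tested genes as a dashed line. Most nucleotide, amino acid and cofactor carriers lie left of the line, with SLC25A4 lowest at -1.09, and SLC25A45 lies farthest right at 2.15.

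The mitoferrins SLC25A37 and SLC25A28, which import iron for haem and iron-sulfur cluster synthesis, shifted against each other. SLC25A37 had 67.9, 64.7 and 67.2 CPM in T47D and 79.3, 78.1 and 71.5 CPM in T47D-TR and was higher by 0.20 ± 0.05 (edgeR adjusted p = 0.0071). SLC25A28 had 33.4, 33.6 and 35.6 CPM in T47D and 30.5, 29.9 and 24.3 CPM in T47D-TR and was lower by -0.27 ± 0.11 (edgeR adjusted p = 0.0125). Neither pair of groups overlapped. The SLC25A37 call was lost without T47D library 2 (edgeR adjusted p = 0.0505) and the SLC25A28 call without T47D library 3 (0.0561). Their log2 ratio, SLC25A28 over SLC25A37, needs no scaling between libraries and differed by -0.48 ± 0.07 without overlap (exact permutation p = 0.1, adjusted 0.2), between -0.51 and -0.42 without any single library.

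Of the 3 members related to uncoupling proteins, 1 was called higher and 2 neither way, beside 32.5% higher and 30.5% lower of all tested genes. Their median log2 change was 0.01. SLC25A27 had 4.85, 3.78 and 4.39 CPM in T47D and 5.18, 6.17 and 8.11 CPM in T47D-TR. It was higher by 0.57 ± 0.21 (edgeR adjusted p = 0.0128), a call lost without T47D library 2 (0.0600) and with voom (0.131). SLC25A14 (7.77 ± 0.666 and 7.76 ± 1.63 CPM) and SLC25A30 (17.1 ± 0.0609 and 17.3 ± 1.75 CPM) had overlapping groups and were not called.

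The largest change of the family was in SLC25A45 (chromosome 11, 65375192 to 65383701, minus strand). It had 1.40, 2.30 and 1.93 CPM in T47D, from 26, 45 and 36 counts, and 7.93, 8.57 and 8.59 CPM in T47D-TR, from 153, 168 and 145 counts. The T47D-TR libraries were tight and all several times above T47D. The means of 1.88 ± 0.453 and 8.36 ± 0.372 CPM (SD, n = 3) differed 4.46-fold, with a log2 change of 2.15 ± 0.20 (edgeR adjusted p = 3.08e-07), and the authors' deposited table gave a log2 fold change of 2.15 for it. SLC25A53 had only 9, 10 and 3 counts in T47D and 16, 16 and 12 in T47D-TR. Its call as higher (1.01 ± 0.40, edgeR adjusted p = 0.0422) was lost in 7 of the 13 alternatives that tested it, among them DESeq2 (0.177) and the fit without T47D library 3 (0.65, 0.163). SLC25A46, a protein of the outer membrane that acts in mitochondrial dynamics, had 54.6, 56.2 and 54.1 CPM in T47D and 66.0, 65.3 and 71.9 CPM in T47D-TR, higher by 0.30 ± 0.05 (edgeR adjusted p = 0.000417). SLC25A43, a neighbour of SLC25A5 on chromosome X, stood at 28.2 ± 1.21 and 27.3 ± 1.14 CPM and was not called.

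Ratios within a library set related carriers against each other without any scaling between libraries. Of 12 pairs tested, 6 had groups that did not overlap. Of single tested genes, 68.3% had CPM that did not overlap, and the share among pairs of other genes was not measured. Besides SLC25A33 over SLC25A36, SLC25A28 over SLC25A37 and SLC25A12 over SLC25A13, the pairs without overlap were SLC25A4 over SLC25A5 (-0.67 ± 0.07), SLC25A23 over SLC25A24 (0.41 ± 0.17) and SLC25A10 over SLC25A11 (0.19 ± 0.06). All 6 had the smallest exact permutation p, 0.1, which is 0.2 after Benjamini-Hochberg adjustment over the 12 pairs, so none could pass the threshold at this number of libraries. The other pairs overlapped: SLC25A21 over SLC25A1 differed by -0.48 ± 0.25, SLC25A22 over SLC25A18 by -0.31 ± 0.23, SLC25A39 over SLC25A40 by -0.27 ± 0.13, SLC25A6 over SLC25A5 by 0.18 ± 0.32, SLC25A25 over SLC25A24 by 0.16 ± 0.09 and SLC25A14 over SLC25A30 by -0.03 ± 0.25.

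**Figure D3:**
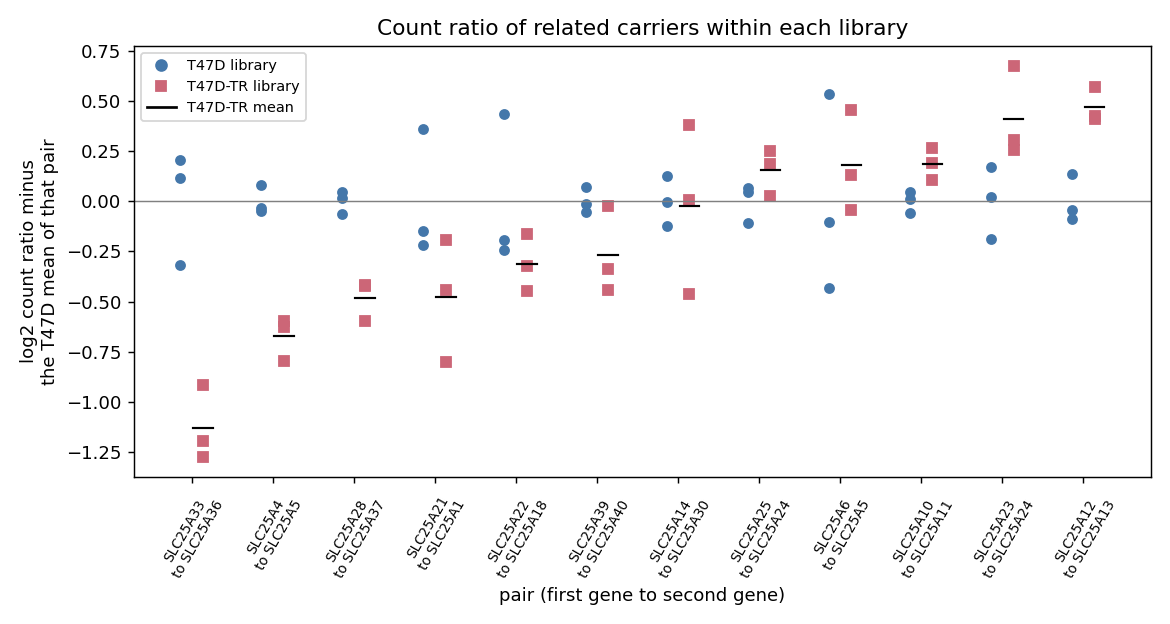
Log2 ratio of the counts of 2 related carriers within each library, minus the T47D mean of that pair, for the 12 pairs tested, with 1 point per library and a bar at the T47D-TR mean. SLC25A4 over SLC25A5 and SLC25A33 over SLC25A36 are lower in all 3 T47D-TR libraries than in any T47D library, and SLC25A12 over SLC25A13 is higher in all 3.

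Genes around the carriers were measured for comparison, in 4 lists of import factors, other transporters, related proteins and enzymes that make or use the solutes. Of 58 listed genes, 55 were in the table and 54 were tested; 28 were lower (51.9%), 14 higher (25.9%) and 12 not called, beside 30.5% lower and 32.5% higher of all tested genes, and their median log2 change was -0.20 against 0.00. The machinery that inserts carriers was lower in 7 of 10 cases (70%) and higher in 1 (10%), against the same 30.5% and 32.5%, with a median of -0.28. TOMM40, the pore of the outer membrane, stood at 230 ± 1.70 CPM in T47D and 129 ± 11.1 CPM in T47D-TR (-0.83 ± 0.07, edgeR adjusted p = 9.64e-08). The receptor TOMM22 stood at 143 ± 6.58 and 93.6 ± 8.20 CPM (-0.62 ± 0.08, edgeR adjusted p = 3.2e-06). TIMM10B, a small TIM protein of the TIM22 complex, was higher, at 59.9 ± 2.08 and 89.3 ± 4.25 CPM (0.58 ± 0.05, edgeR adjusted p = 1.41e-06).

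Among SLC25 proteins with other symbols, 2 of 4 were lower and none higher, beside 30.5% lower and 32.5% higher of all tested genes. The lower ones were UCP2 at 12.3 and 9.13 CPM (-0.44 ± 0.08, edgeR adjusted p = 0.00241) and the outer-membrane insertase MTCH2 at 130 and 105 CPM (-0.30 ± 0.02, edgeR adjusted p = 8.06e-05). Of 19 other mitochondrial transporters, 8 were higher (42.1%) and 7 lower (36.8%), against 32.5% and 30.5% of all tested genes, with a median of 0.10. The 8 became 4 without T47D library 1, 5 without T47D library 2 or T47D-TR library 1, and 5 with library size alone, voom or DESeq2. The peptide and haem-related transporter ABCB10 (27.3 and 16.3 CPM, -0.74 ± 0.10) and the pyruvate carrier subunit MPC1 (13.4 and 8.80 CPM, -0.61 ± 0.12) were the lowest of them. The sideroflexin SFXN3 (56.4 and 79.9 CPM, 0.50 ± 0.05) and MCUB, a subunit of the calcium uniporter (15.3 and 19.5 CPM, 0.35 ± 0.09), were the highest, and the MCUB call was lost with voom (adjusted p = 0.0598).

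Of the 21 enzymes tested, 12 were lower (57.1%) and 5 higher (23.8%), against 30.5% and 32.5% of all tested genes, with a median of -0.17. NFS1, the cysteine desulfurase of iron-sulfur cluster assembly, was higher, at 41.3 ± 1.88 and 75.7 ± 3.03 CPM (0.87 ± 0.05, edgeR adjusted p = 5.93e-08). ACLY, which splits the citrate that SLC25A1 exports, stood at 630 ± 18.1 and 347 ± 19.3 CPM (-0.86 ± 0.05, edgeR adjusted p = 1.18e-08), a larger drop than that of the carrier itself, though the difference between them was not tested.

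**Figure D4:**
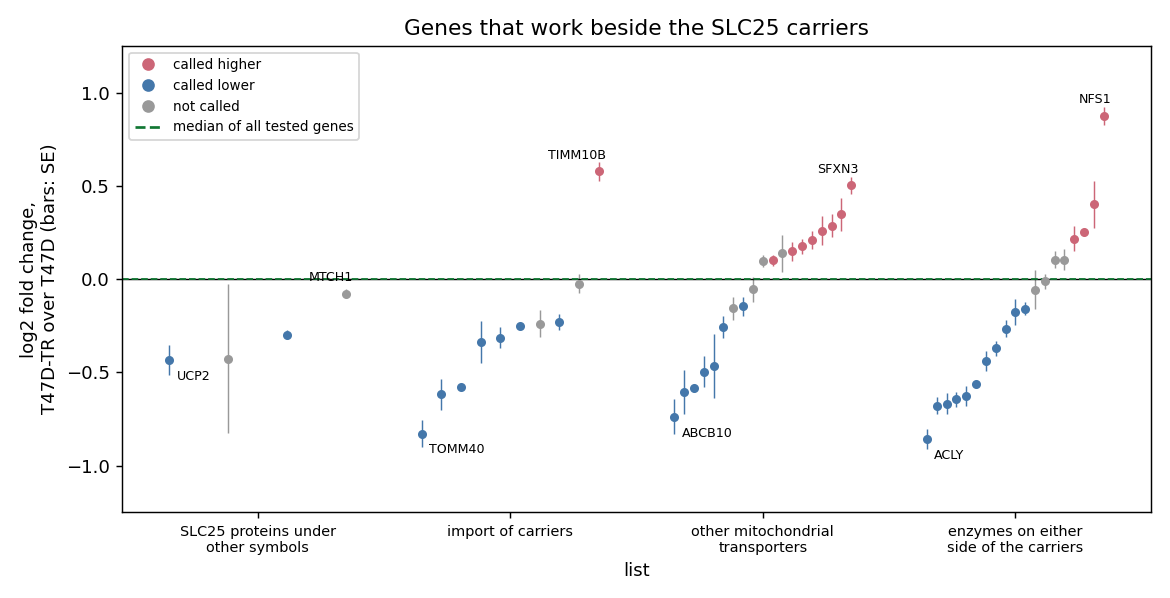
Log2 change of T47D-TR over T47D for tested genes of the 4 lists around the family, 1 point per gene with its SE and the median of all tested genes as a dashed line. Import factors lie mostly below the line, down to -0.83 for TOMM40, and other transporters lie on both sides of it.

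The authors' deposited table called 18 members lower and 7 higher at a false discovery rate under 0.05, beside a background of 44.4% called, 21.3% lower and 23.2% higher, over its 20503 genes. All 25 were also called by edgeR. The 3 members called by edgeR alone were SLC25A10, SLC25A36 and SLC25A53, with false discovery rates of 0.0560, 0.0703 and 0.124 in the authors' deposited table.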

How the data were processed

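RNA-seq read counts per gene were analysed for 3 T47D and 3 T47D-TR libraries, assigned to groups by their titles. TRIzol-extracted total RNA, 1 µg a library, was poly(A)-selected and made into strand-keeping NEBNext libraries, per the labels' protocols. Per the submitters' processing notes, the tools were HISAT2 2.1.0, with GRCh38, and DESeq; the sources used here name no counting tool, strand setting or annotation. The authors deposited whole-number counts under a name that says FPKM, and beside them a normalized signal per group, a fold change as a linear ratio, a log2 fold change, and a p-value with a false discovery rate, which are quoted only where named as theirs.

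Counts were tested with edgeR 4.0.16 in R 4.3.3 (TMM, filterByExpr at min.count 10 and min.total.count 15, glmQLFit and glmQLFTest, 2-sided), with Benjamini-Hochberg adjustment over 15961 genes and calls at 0.05. Standard errors come from log2 CPM with a prior count of 2. Shares and within-library ratios (0.5 added to each count) had exact permutation tests. Alternatives were DESeq2 1.42.0, limma 3.58.1 (trend, and voom with quantile normalization), 2 other scalings, 2 other filters, the replicate number as a block, and each library left out. The precision of low members is limited by their counts, and the depths of 17199315 to 19867230 cover counting error only.

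Values by library were given for the 10 called members with the largest and the 10 with the smallest change, the ADP/ATP carriers with SLC25A3, and members of the listed pairs that the text follows; from each list around the family, up to 2 called genes at each end were named. Members and lists were chosen with earlier results of these data known. Positions and exon lengths are from GENCODE v29, to which all 42 symbols matched, and promoter windows from RefSeq on GRCh38.p14, which gave windows for 35 members. A few genes that this rule would name are not reported here, in the text or the figures, and stay in the counts and medians. MCUB, TIMM29 and TOMM70 were found under older symbols. SLC25A2, SLC25A31, SLC25A47, SLC25A48 and SLC25A52, and UCP1, MICU3 and OTC of the other lists, were not found in the count table. They were therefore not analysed here.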

Additional observations from a re-analysis of the deposited data

How the results depend on the processing

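Of the 28 calls among members, 19 held in every one of the 14 alternatives that tested them and 9 were lost in at least 1; none reversed. SLC25A16, SLC25A18, SLC25A40 and SLC25A51 were called in at least 1 alternative and not in the reported fit. Leaving out each library in turn gave 6 to 11 members higher and 16 to 18 lower; the 6 came without T47D replicate 3, where the cause was not tested. No pairing by replicate number was seen in the levels: deviations of same-numbered libraries correlated at r = -0.0208 to -0.0051. Those of differently numbered libraries correlated at r = -0.0047 to 0.0215. These values cannot show whether same-numbered libraries were grown or prepared together. With the replicate block, 10 members were higher and 18 lower, beside 32.1% and 30.2% of all genes, and all 28 calls were shared. Library size alone gave 9 higher and 18 lower, RLE factors 10 and 18, no filter 9 and 18, a mean of at least 5 CPM 8 and 17 of fewer genes tested, limma-trend 10 and 18, DESeq2 9 and 18, and voom with quantile normalization 7 and 21. Members near the detection limit, SLC25A18, SLC25A34, SLC25A41 and SLC25A53, rest on few counts.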

Other observations

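The malate-aspartate shuttle, which carries reducing equivalents of NADH into the matrix, draws on 2 of the lists; its genes were picked out after their values were seen, so the count carries no test. Of its carriers, SLC25A13 was called lower, and SLC25A11 and SLC25A12 were not called. Of its enzymes, the cytosolic aspartate aminotransferase GOT1 stood at 91.1 ± 3.63 CPM in T47D and 59.1 ± 3.18 CPM in T47D-TR (SD, n = 3), a log2 change of -0.63 ± 0.06 (SE; edgeR adjusted p = 9.37e-07). The mitochondrial aminotransferase GOT2 stood at 241 ± 1.91 and 163 ± 3.88 CPM (-0.56 ± 0.02, edgeR adjusted p = 1.6e-07), and the mitochondrial malate dehydrogenase MDH2 at 266 ± 6.45 and 206 ± 8.91 CPM (-0.37 ± 0.04, edgeR adjusted p = 1.4e-05). The cytosolic malate dehydrogenase MDH1 stood at 122 ± 5.30 and 121 ± 2.65 CPM (-0.01 ± 0.04) and was not called.

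Genes of mitochondrial one-carbon metabolism, also picked out after their values were seen, lay on both sides. The folate carrier SLC25A32 was lower, while MTHFD2, a dehydrogenase of the matrix folate pathway, stood at 176 ± 4.70 and 233 ± 35.7 CPM (0.40 ± 0.13, edgeR adjusted p = 0.00105) and the serine hydroxymethyltransferase SHMT2 at 183 ± 3.39 and 213 ± 16.9 CPM (0.22 ± 0.07, edgeR adjusted p = 0.00414), both called higher. MTHFD1L stood at 83.6 ± 1.91 and 80.4 ± 10.2 CPM and was not called (edgeR adjusted p = 0.526).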
